A study of Mus musculus with 27 samples.

Results

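The 10 genes described here were chosen by name as the transcripts that mouse epidermis makes after wounding and under stress: the keratins Krt6a, Krt6b, Krt16 and Krt17, the calcium-binding proteins S100a8 and S100a9, the cytokines Il1a, Il1b and Il36a, and the protease inhibitor Stfa1. They are 10 of the 54532 genes in a table of RNA sequencing counts of dorsal skin from C3H mice. Of them, 9 were found under these names, and Il36a was found under its older name, Il1f6. The 27 libraries form 3 groups of 9. Blank skin received no treatment. Vehicle skin was given solvent alone, and TDM skin was given TDM10842 dissolved in it, a compound that the submitters describe as an agonist of the thyroid hormone receptor. Vehicle and TDM skin were treated 2 times, with 60 µL at 0 and at 24 h. The labels do not say when skin was taken, how old the animals were or whether every library came from its own animal. The p-values therefore rest on the spread among these libraries only, and that spread may be technical. Whole skin was used, so fewer cells of a type and less RNA per cell cannot be told apart.

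Resting epidermis makes keratins 5 and 14 in its basal layer and keratins 1 and 10 above it. Injured or inflamed keratinocytes add keratins 6, 16 and 17, which pair into filaments of another make-up; in intact skin the same keratins are found in the hair follicle, with keratin 17 in its outer root sheath. Interleukin 1 alpha is stored in keratinocytes and released when they are damaged, interleukin 36 alpha is a related cytokine made mainly by epithelial cells, and both act through receptors that share the accessory chain Il1rap. These signals raise S100a8 and S100a9 in keratinocytes, proteins that are also abundant in neutrophils. Stefin A proteins inhibit cathepsins and occur in stratified epithelium and in neutrophils.

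Count totals ran from 15412332 to 17599066 reads per library. Skin keratins marked the tissue: Krt14 had a mean of 2032 ± 398 CPM (counts scaled to a common library size, SD, n = 9) in Blank. The 10 retina genes, examined because the protocol text speaks of retinas, summed to at most 11.1 CPM in any library. Skeletal muscle genes were abundant and differed between libraries, with sums over 20 genes of 31512 to 74519 CPM (Blank), 29498 to 102296 (Vehicle) and 20914 to 53425 (TDM). Of 19 tested, 18 were called lower in TDM than in Vehicle (median log2 fold change -0.99), where 11.7% of all tested genes were called lower. None was called between Vehicle and Blank, and 1 was lower in TDM than in Blank. The muscle covariate used below is the mean log2 CPM of the 19 tested genes. It was 10.58 ± 0.41 in Blank, 10.95 ± 0.61 in Vehicle and 10.03 ± 0.49 in TDM (SD, n = 9). It thus differed between the groups, most between TDM and Vehicle, and fits with it cannot tell muscle content from treatment. Vehicle replicate 3 had the highest sum of muscle genes and of intestine genes (202 CPM, against a Vehicle median of 15.1), and Vehicle replicate 8 had the highest sum of growing follicle genes in its group (383 CPM, against a median of 151). By the mean log2 CPM of the tested follicle genes, Vehicle replicate 7 was the highest of its group (3.22) and Vehicle replicate 8 came next (2.70).

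Of the 10 genes, 8 passed the filter on low counts and were tested with the rest of the table. Krt6b and Stfa1 did not pass and were read from a fit with no filter beyond 1 read. That fit held 34892 genes. Per length, mean levels in Blank ran from 266 FPKM for Krt17 through 14.5 for Krt6a, 11.4 for Krt16, 6.69 for S100a8 and 5.08 for S100a9 to 2.15 for Il1b, 2.05 for Il36a, 1.76 for Il1a, 1.15 for Stfa1 and 1.08 for Krt6b. Krt17 stood apart from the next gene, and every other pair of neighbours in this order differed by less than the larger SD of the pair.

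**Figure D1:**
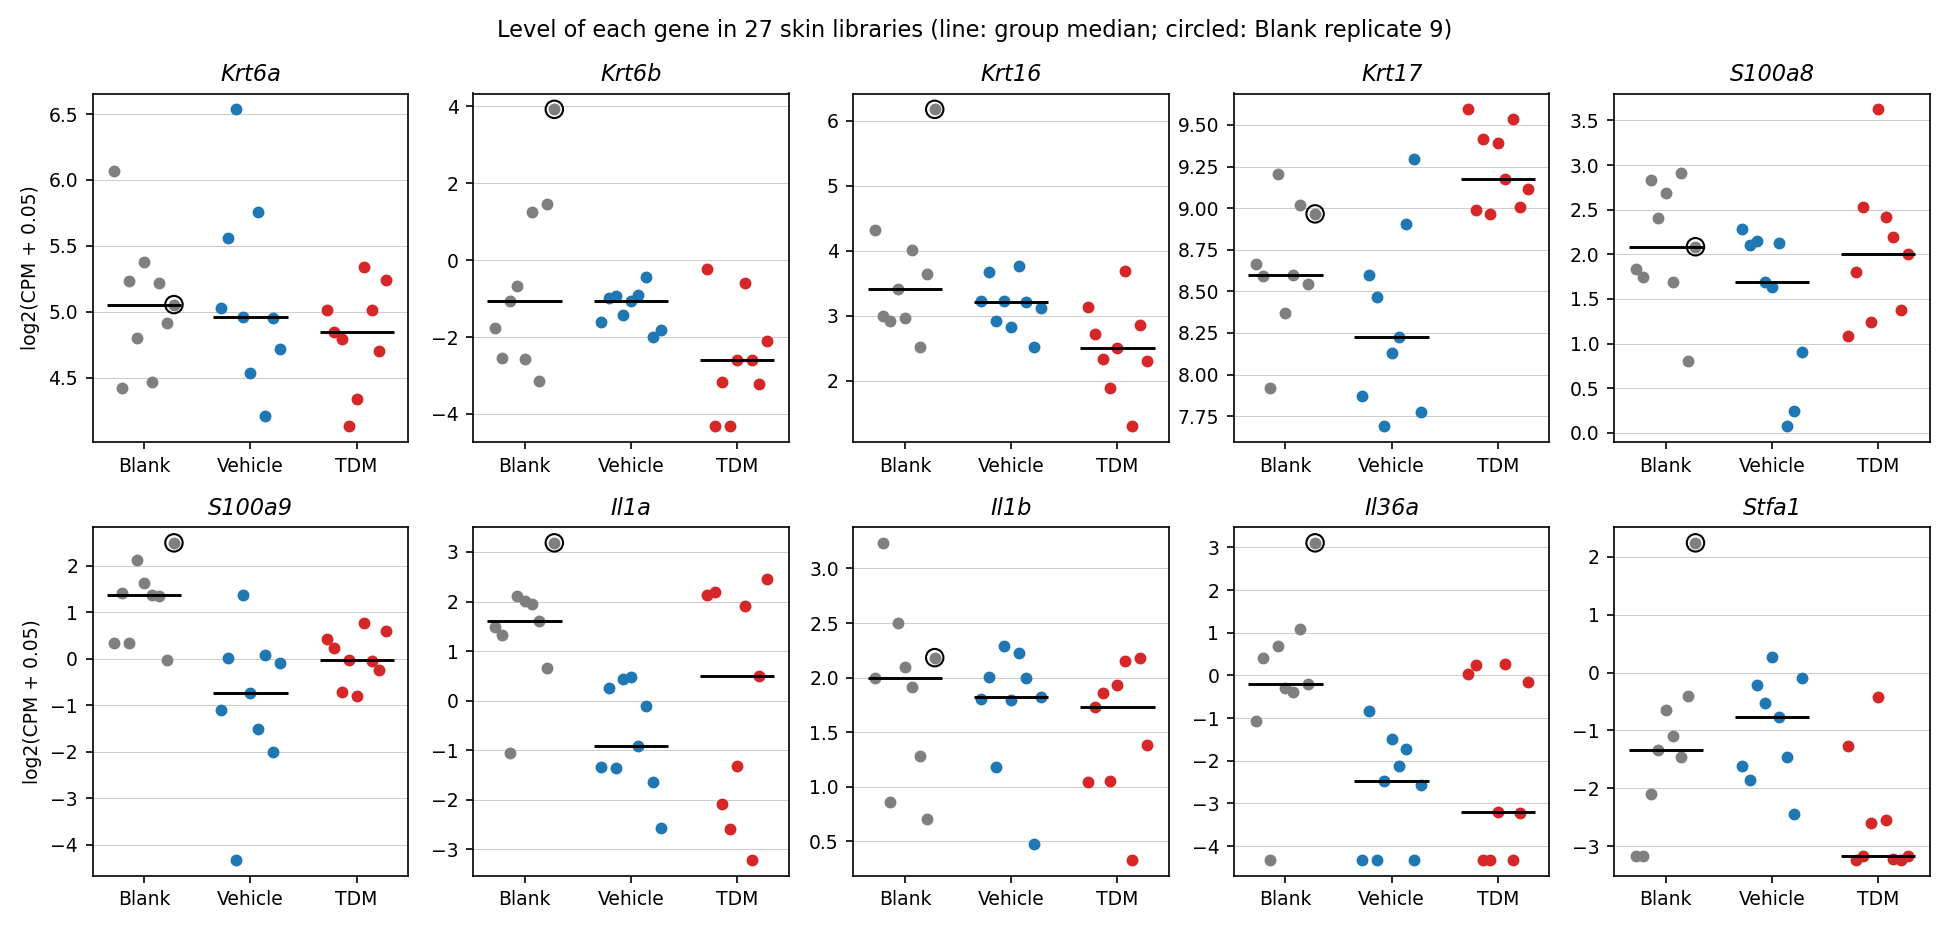
Each point is 1 library, with log2(CPM + 0.05) on the vertical axis and the groups Blank, Vehicle and TDM on the horizontal axis of each panel; lines are group medians and the circle marks Blank replicate 9. Krt17 was higher in every TDM library than the Blank and Vehicle medians, while Il1a and Il36a spread widely within TDM, and Blank replicate 9 lies above the other Blank libraries for 6 of the 10 genes.

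Between TDM and Vehicle skin, 1 of the 10 genes was called: Krt17 was higher, and none was lower. Over all 17232 tested genes 23.7% were called, 12.0% as higher and 11.7% as lower. Between Vehicle and Blank, S100a9 and Il36a were lower and none was higher, where 2.76% of all genes were called, 0.894% as higher and 1.86% as lower. Without any of Blank replicates 4, 6 and 9 or Vehicle replicates 1, 3, 6 and 8, edgeR called no gene of the table between Vehicle and Blank (3430 to 4327 genes had an unadjusted p under 0.05), so each edgeR call of that comparison given below, for the 10 genes and for the other genes alike, was lost in these 7 omissions. Between TDM and Blank, Krt17 was higher and Krt16 and S100a9 were lower, where 16.2% were called, 11.6% as higher and 4.63% as lower. The median log2 fold change of the 8 tested genes was 0.51, -0.77 and -0.54 in these comparisons, beside 0.01, 0.02 and -0.02 over all tested genes. The 3 comparisons share groups. Krt6a, S100a8 and Il1b were called in none of them. In the fit with no filter, which gives Krt6b and Stfa1, 9.28% of genes were called between TDM and Vehicle (4.13% higher, 5.16% lower), 0.00573% between Vehicle and Blank (0.00287% in each direction) and 6.06% between TDM and Blank (4.30% higher, 1.75% lower), and Krt6b was lower in TDM than in Blank.

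**Figure D2:**
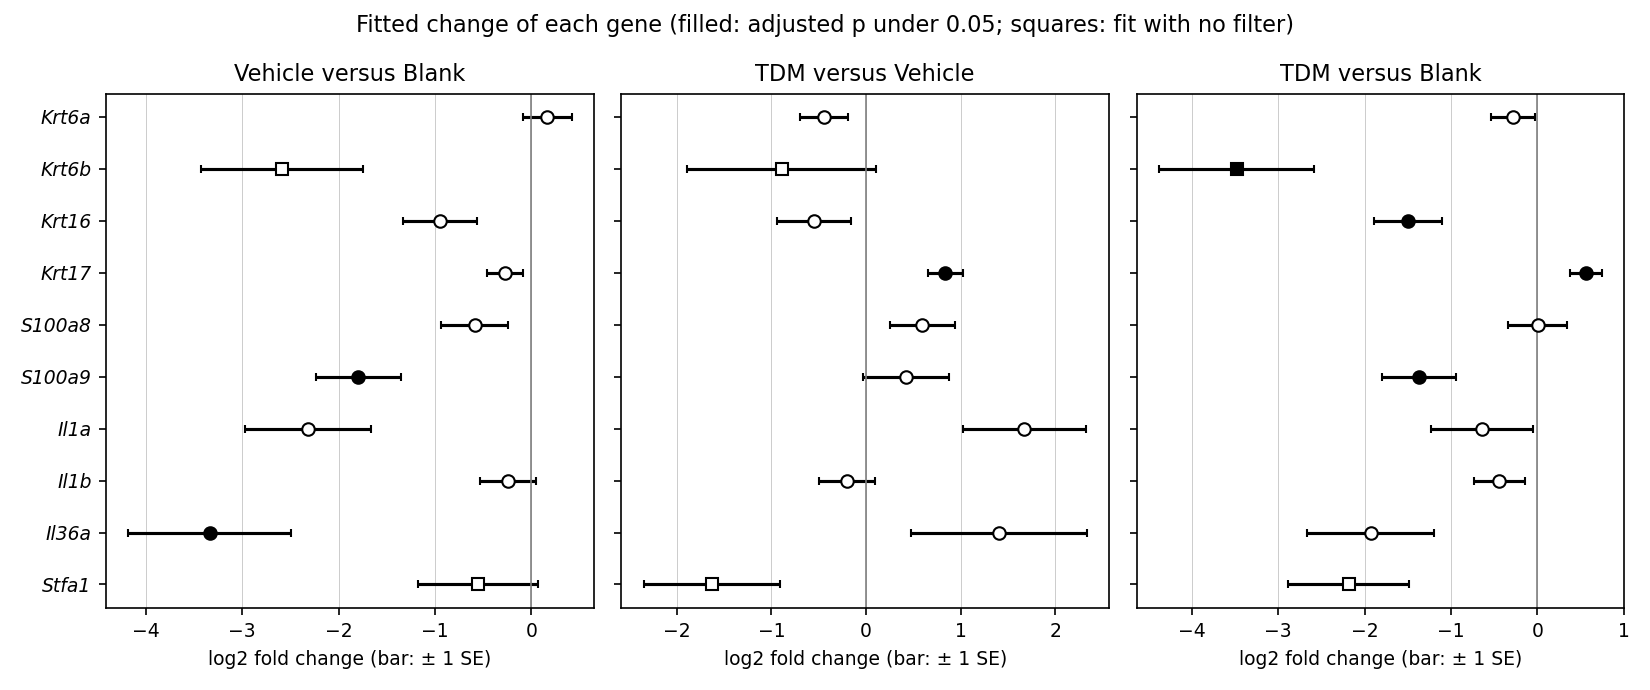
Log2 fold changes (horizontal axis) of the 10 genes (vertical axis) in the 3 comparisons, with bars of 1 standard error; filled marks have an adjusted p under 0.05 and squares are genes read from the fit with no filter. In TDM versus Vehicle only Krt17 is filled, and in both comparisons with Blank most marks lie below 0.

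Krt17, a type I keratin of the outer root sheath and of activated epidermis, lies on chromosome 11 (100256217 to 100261029, minus strand, GRCm38). It was the most abundant of the 10 per length, at 266 ± 68.9 FPKM in Blank, 219 ± 86.2 in Vehicle and 389 ± 64.8 in TDM (SD, n = 9). Its lowest, median and highest values were 242, 388 and 589 CPM in Blank, 206, 299 and 628 in Vehicle, and 499, 578 and 773 in TDM. All 9 TDM libraries lay above the Vehicle median and above the Blank median. The groups overlapped: Vehicle replicate 8, at 628 CPM, and Blank replicates 4, 7 and 9 lay within the TDM range, Vehicle replicate 7 stood just below it at 479 CPM, and the other 7 Vehicle libraries reached at most 388. Krt17 rose 1.79-fold from Vehicle to TDM (log2 fold change 0.84 ± 0.19 SE, adjusted p = 0.00396). Without Vehicle replicates 7 and 8 the log2 fold change was 1.12 (adjusted p = 2.35e-05), and without Vehicle replicate 3 it was 0.83 (adjusted p = 0.00781). With the mean level of the muscle genes as a covariate it was 0.78 and was not called (adjusted p = 0.103).

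Compared with Blank, Krt17 was 1.48-fold higher in TDM (log2 fold change 0.56 ± 0.19 SE, adjusted p = 0.0376). This call was lost when any of 10 single libraries was left out, namely Blank replicates 1, 2, 3, 5, 6 and 8 and TDM replicates 1, 3, 5 and 7, with log2 fold changes from 0.46 to 0.55 and adjusted p from 0.0577 to 0.0876. It was also lost with the muscle covariate (0.53, adjusted p = 0.0607) and with no filter (0.54, adjusted p = 0.0837). The difference between Vehicle and Blank did not pass (log2 fold change -0.27 ± 0.19 SE, adjusted p = 0.344). Genes of the growing hair follicle were also higher in TDM: 10 of 15 tested genes rose against Vehicle and 12 against Blank, and none fell. Of 20 tested genes of cell division, 19 rose against Vehicle and 20 against Blank. Over all tested genes 12.0% rose against Vehicle and 11.6% against Blank. Against Vehicle, 8 follicle genes rose without Vehicle replicate 3 and 13 without Vehicle replicate 8, and 19 and 20 genes of cell division. The 17 follicle genes in the table had sums of 90.2 to 203 CPM (Blank), 97.8 to 383 (Vehicle) and 147 to 714 (TDM). After group means were removed, Krt17 followed the mean log2 level of these genes over the 27 libraries (Pearson's r = 0.757, Spearman's rho = 0.760, adjusted p = 0.000133 for each, permutation within groups, over 40 relations between genes and marker lists chosen after seeing the data; r = 0.734 without the 2 libraries farthest from the median). Within groups r was 0.832 in Blank, 0.862 in Vehicle and 0.656 in TDM (exact permutation p = 0.00648, 0.00275 and 0.0584, n = 9 each). The part of the follicle and division genes in the Krt17 difference was not tested. Among 14111 expressed genes (mean of 1 CPM or more), those most like Krt17 across libraries were Traip (r = 0.894), Zfp266 (0.884) and Thop1 (0.873). Here and for the genes below, such values are the highest picked from 14111, and no reference value for them is given.

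Krt16, the type I keratin that pairs with keratin 6, lies beside it (100246091 to 100248902). The lowest, median and highest levels of Krt16 were 5.71, 10.6 and 72.3 CPM in Blank, 5.69, 9.27 and 13.5 in Vehicle, and 2.42, 5.62 and 12.8 in TDM. Blank replicate 9 held the value of 72.3 CPM, and the next Blank library had 19.9. TDM libraries were low: 8 of 9 lay below the Blank median. Krt16 fell 2.82-fold from Blank to TDM (log2 fold change -1.50 ± 0.40 SE, adjusted p = 0.00932). Without Blank replicate 9 the log2 fold change was -0.80 and still called (adjusted p = 0.042). It was not called by limma voom with sample quality weights (-0.81, adjusted p = 0.0743). The difference between TDM and Vehicle (-0.55 ± 0.39 SE, adjusted p = 0.321) and that between Vehicle and Blank (-0.95 ± 0.39 SE, adjusted p = 0.130) did not pass. The latter was -0.25 without Blank replicate 9 (adjusted p = 0.585). Krt16 and Krt17, neighbours on the chromosome, had opposite signs in TDM versus Blank and were both below 0 in Vehicle versus Blank. Across the 27 libraries, with group means removed, their levels had r = 0.04 and rho = 0.04 (unadjusted permutation p = 0.836 and 0.850). The genes most like Krt16 were Gsdmc (r = 0.791), Tcaf2 (0.733) and Vopp1 (0.703).

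Krt6a and Krt6b are the type II partners of keratins 16 and 17 and lie next to each other on chromosome 15 (Krt6a 101689910 to 101694307, Krt6b 101676023 to 101680287, minus strand). Their coding sequences, of 1662 and 1665 bases, were 97.6% identical, and 43.6% of the 50-base windows of the Krt6a transcript also occur in Krt6b. Reads in such windows could have been counted for either gene, and the sources used here do not say how the authors treated them. The 90 coding bases in which the 2 genes differ most, from base 787 to base 876 of each coding sequence, are shown as an example of a stretch in which reads can tell the copies apart; others lie elsewhere in the transcripts. Capitals mark the 12 differing bases, on GRCm38 at chr15:101692484-101692573 for Krt6a and chr15:101678303-101678392 for Krt6b, minus strand, from the GENCODE M21 transcripts.
Krt6a: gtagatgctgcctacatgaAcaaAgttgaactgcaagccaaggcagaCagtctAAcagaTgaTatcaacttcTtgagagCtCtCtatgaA
Krt6b: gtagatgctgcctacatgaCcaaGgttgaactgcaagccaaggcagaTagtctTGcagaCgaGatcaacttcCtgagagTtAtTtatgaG

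Krt6a was the more abundant copy, at 14.5 ± 5.59 FPKM in Blank against 1.08 ± 2.20 for Krt6b. Across libraries Krt6a had lowest, median and highest values of 21.4, 33.2 and 67.2 CPM in Blank, 18.5, 31.2 and 92.7 in Vehicle, and 17.5, 28.7 and 40.4 in TDM. The groups overlapped throughout, and the highest values were single libraries, Blank replicate 1 and Vehicle replicate 3. Krt6a did not pass the test between TDM and Vehicle (log2 fold change -0.44 ± 0.25 SE, adjusted p = 0.209), between Vehicle and Blank (0.16 ± 0.25 SE, adjusted p = 0.700) or between TDM and Blank (-0.28 ± 0.25 SE, adjusted p = 0.499). Without Vehicle replicate 3 the first of these was -0.20 (adjusted p = 0.562) and the second turned in sign (-0.096, adjusted p = 0.835). Across libraries it followed basal keratinocyte genes (r = 0.695, rho = 0.636, adjusted p = 0.00286 and 0.0061; r = 0.619 without the 2 libraries farthest from the median). Within groups r was 0.430 in Blank, 0.901 in Vehicle and 0.349 in TDM (exact permutation p = 0.251, 0.000783 and 0.357, n = 9 each). The gene most like it was Krt24 (r = 0.834), then the desmosome gene Dsg3 (0.822) and Afdn (0.778).

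Krt6b was near the limit of detection in most libraries. Blank libraries held 1 to 252 reads, Vehicle libraries 3 to 11 and TDM libraries 0 to 13. The 252 reads, 15.1 CPM, were in Blank replicate 9, and no other library exceeded 2.70 CPM. In the fit with no filter, Krt6b was lower in TDM than in Blank (log2 fold change -3.48 ± 0.90 SE, adjusted p = 0.0178). Without Blank replicate 9 the log2 fold change was -1.94 and the call was lost (adjusted p = 0.0983). It was also lost with limma voom (-2.01, adjusted p = 0.164), with only the 2 groups in the fit (-3.48, adjusted p = 0.0647), and on log2(FPKM + 1) and log2(FPKM + 0.1) (-0.55 and -1.40, adjusted p = 0.256 and 0.156). TDM and Vehicle differed by -0.89 ± 1.00 SE and Vehicle and Blank by -2.59 ± 0.84 SE, neither called (adjusted p = 0.615 and 0.139), although DESeq2 called the latter (-2.63, adjusted p = 0.034).

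S100a8 and S100a9 are neighbours on chromosome 3 (S100a8 90668978 to 90670035, plus strand; S100a9 90692632 to 90695721, minus strand), and their proteins join into calprotectin, which binds zinc and calcium and acts on the receptors Tlr4 and Ager. S100a8 had lowest, median and highest values of 1.70, 4.19 and 7.46 CPM in Blank, 1.00, 3.17 and 4.81 in Vehicle, and 2.08, 3.95 and 12.3 in TDM. The value of 12.3 CPM was TDM replicate 5, and the groups overlapped. No comparison of S100a8 was called: its log2 fold change was 0.59 ± 0.34 SE for TDM versus Vehicle, -0.59 ± 0.34 SE for Vehicle versus Blank and 0.00 ± 0.34 SE for TDM versus Blank (adjusted p = 0.212, 0.270 and 0.996).

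S100a9 was lower in both treated groups. Its lowest, median and highest values were 0.94, 2.52 and 5.57 CPM in Blank, 0, 0.548 and 2.52 in Vehicle, and 0.521, 0.925 and 1.65 in TDM. All 9 TDM libraries and 8 of 9 Vehicle libraries lay below the Blank median, the exception being Vehicle replicate 4. S100a9 fell 3.47-fold from Blank to Vehicle (log2 fold change -1.79 ± 0.44 SE, adjusted p = 0.0341) and 2.58-fold from Blank to TDM (-1.37 ± 0.42 SE, adjusted p = 0.0265). The call between Vehicle and Blank was lost without any of Blank replicates 4, 6, 7 and 9 or Vehicle replicates 1, 3, 6 and 8 (log2 fold changes -1.58 to -1.80, adjusted p 0.0541 to 0.0812), and without both of Vehicle replicates 7 and 8 (-1.71, adjusted p = 0.0565) or Vehicle replicates 3, 7 and 8 (-1.50, adjusted p = 0.146). It was also lost with limma voom, with no filter and with the muscle covariate (-1.40, -1.80 and -1.42, adjusted p = 0.0799, 0.078 and 0.114). The call between TDM and Blank was lost without Blank replicate 9 (-1.16, adjusted p = 0.0631) or TDM replicate 5 (-1.28, adjusted p = 0.0524), with limma voom (-0.77, adjusted p = 0.125) and on log2(FPKM + 0.1) (-1.22, adjusted p = 0.0907). TDM and Vehicle differed by 0.42 ± 0.45 SE (adjusted p = 0.524).

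Across libraries, with group means removed, the 2 calprotectin genes showed no detectable relation (r = -0.09, rho = -0.11, unadjusted permutation p = 0.692 and 0.598, n = 27). Those most like S100a8 were Wfdc3 (r = 0.735), Pdlim1 (0.718) and Tmem19 (0.701), and those most like S100a9 were Bend6 (0.830), Wfdc21 (0.797) and Orm1 (0.792). Both had low counts, at most 212 reads for S100a8 and 93 for S100a9 in a library. The 250 bases before their annotated starts (RefSeq, GRCm38.p6) are shown because the genes are neighbours with unlike values; capitals mark the letters TATAAA, found 30 bases before the start in S100a8, at chr3:90668821-90669070 on the plus strand, and not in the S100a9 stretch, at chr3:90695722-90695971 on the minus strand, where these letters begin at the annotated start itself.
S100a8: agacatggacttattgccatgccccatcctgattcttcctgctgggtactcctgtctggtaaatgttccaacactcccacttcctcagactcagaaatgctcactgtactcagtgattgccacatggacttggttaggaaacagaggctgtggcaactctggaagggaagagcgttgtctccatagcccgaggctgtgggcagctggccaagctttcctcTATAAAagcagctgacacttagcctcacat
S100a9: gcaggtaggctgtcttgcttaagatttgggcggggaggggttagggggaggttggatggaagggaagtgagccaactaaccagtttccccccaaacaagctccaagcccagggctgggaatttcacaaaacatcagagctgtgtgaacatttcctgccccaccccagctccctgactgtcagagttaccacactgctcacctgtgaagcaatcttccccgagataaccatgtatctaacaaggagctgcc

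The calprotectin receptor genes did not pass in any comparison; Tlr4 had means of 21.8 ± 7.65, 14.7 ± 6.88 and 20.1 ± 8.95 CPM in Blank, Vehicle and TDM, and Ager 1.11 ± 0.368, 0.837 ± 0.352 and 0.978 ± 0.371. Of 11 other tested S100 genes, S100a3 rose and S100a1 and S100a7a fell from Vehicle to TDM, S100a1 fell from Blank to TDM, and none was called between Vehicle and Blank. Over all tested genes 23.7% were called between Vehicle and TDM and 16.2% between Blank and TDM. These S100 calls therefore cannot be read as particular to the family. Markers of neutrophils were low in all groups. Ly6g, which defines these cells in mice, reached at most 0.323 CPM and had no read in 7 of 9 Blank, 6 of 9 Vehicle and 5 of 9 TDM libraries. The 16 neutrophil markers, 6 of them tested, had sums of 23.6 to 64.4 CPM (Blank), 13.7 to 49.5 (Vehicle) and 15.5 to 58.7 (TDM). Camp, which encodes an antimicrobial peptide that keratinocytes also make, was the only one called: it rose 5.55-fold from Vehicle (adjusted p = 0.00195) and 6.52-fold from Blank (adjusted p = 0.000549) to TDM.

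Il1a encodes interleukin 1 alpha (chromosome 2, 129299610 to 129309972, minus strand). It was low in Vehicle: its lowest, median and highest values were 0.427, 3.01 and 9.04 CPM in Blank, 0.118, 0.481 and 1.34 in Vehicle, and 0.0575, 1.36 and 5.41 in TDM. All 9 Vehicle libraries lay below the Blank median. Within TDM the libraries spread from end to end, with replicates 1, 2, 6 and 9 between 3.72 and 5.41 CPM, replicate 8 at 1.36, and replicates 3, 4, 5 and 7 between 0.0575 and 0.347. The log2 fold change was -2.32 ± 0.65 SE from Blank to Vehicle, just outside the threshold (adjusted p = 0.0501), and 1.67 ± 0.65 SE from Vehicle to TDM (adjusted p = 0.0618). DESeq2 called both (adjusted p = 0.00918 and 0.0305), and the former was also called with RLE scaling, with a filter at a mean of 1 CPM and with only the 2 groups in the fit (adjusted p = 0.0492, 0.0476 and 0.0123). Leaving out 1 library moved them over the threshold in either case: the difference between Vehicle and Blank was called without any of Blank replicates 2 and 3, Vehicle replicates 4, 5 and 7 or TDM replicates 3, 4, 5, 7 and 9 (adjusted p 0.0308 to 0.049), and the difference between TDM and Vehicle without any of TDM replicates 3, 4, 5 and 7 (1.82 to 1.84, adjusted p 0.0286 to 0.0445). Without Blank replicate 9 the difference between Vehicle and Blank was -1.997 (adjusted p = 0.113). TDM and Blank differed by -0.64 ± 0.59 SE (adjusted p = 0.498).

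Il36a encodes interleukin 36 alpha (chromosome 2, 24215418 to 24225702, plus strand). Its lowest, median and highest values were 0, 0.821 and 8.56 CPM in Blank, 0, 0.129 and 0.510 in Vehicle, and 0, 0.0579 and 1.16 in TDM, and no read was found in 1, 3 and 3 libraries of these groups. All 9 Vehicle libraries lay below the Blank median. Il36a fell 10.1-fold from Blank to Vehicle (log2 fold change -3.33 ± 0.85 SE, adjusted p = 0.0366), where Vehicle libraries held at most 9 reads. Without Blank replicate 9, at 8.56 CPM, the log2 fold change was -2.42 and the call was lost (adjusted p = 0.109). It was also lost without any of Blank replicates 4, 6 and 7 or Vehicle replicates 1, 3, 6, 8 and 9 (-3.18 to -3.44, adjusted p 0.053 to 0.0804), or without both of Vehicle replicates 7 and 8 (-3.24, adjusted p = 0.0629) or Vehicle replicates 3, 7 and 8 (-3.04, adjusted p = 0.166). Other processing ended the call as well: limma voom (-2.25, adjusted p = 0.178), no filter (-3.34, adjusted p = 0.0916), the muscle covariate (-2.37, adjusted p = 0.12), and log2(FPKM + 1) and log2(FPKM + 0.1) (-1.01 and -2.31, adjusted p = 0.0545 and 0.061). With only the 2 groups in the fit, Il36a did not pass the filter for Vehicle versus Blank or for TDM versus Vehicle. Its tests in these comparisons rest on a filter over all 27 libraries, which it passed through Blank and TDM libraries. TDM differed from Vehicle by 1.41 ± 0.93 SE (adjusted p = 0.276) and from Blank by -1.93 ± 0.74 SE (adjusted p = 0.0745); the latter was called without Blank replicate 3, which had no read (-2.11, adjusted p = 0.0448). With the muscle covariate the signs of Il1a and Il36a in TDM versus Vehicle turned (-0.46 and -1.08, adjusted p = 0.841 and 0.638), and both were called as lower in TDM than in Blank (-1.95 and -3.45, adjusted p = 0.0243 and 0.00105).

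Il1b encodes interleukin 1 beta, which needs cleavage to become active and comes mostly from myeloid cells (chromosome 2, 129364570 to 129371139, minus strand). Its lowest, median and highest values were 1.58, 3.95 and 9.36 CPM in Blank, 1.34, 3.48 and 4.85 in Vehicle, and 1.21, 3.27 and 4.48 in TDM. The 3 groups overlapped, and 1 library, Blank replicate 2 at 9.36 CPM, lay above all others. Its log2 fold changes were -0.20 ± 0.30 SE for TDM versus Vehicle, -0.24 ± 0.29 SE for Vehicle versus Blank and -0.44 ± 0.29 SE for TDM versus Blank (adjusted p = 0.659, 0.611 and 0.329). With the muscle covariate Il1b was called lower in TDM than in Blank (-0.82, adjusted p = 0.0291). The genes most like Il1b across libraries were Ccl2 (r = 0.811) and Tnf (0.782), both cytokines of inflammation, and Rgs2 (0.775). Il1a had other neighbours: Alox12b, an enzyme of the skin lipid barrier, and Cysrt1 (each r = 0.963), then Sdr9c7 (0.961). Those of Il36a were its family members Il36rn (0.926) and Il36g (0.922), and Aadacl2 (0.920).

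The stretches before the starts of Il1a and Il1b are shown because the genes neighbour each other and had unlike values (RefSeq, GRCm38.p6, 250 bases each, Il1a at chr2:129309973-129310222 and Il1b at chr2:129371140-129371389, minus strand of the genome). Capitals mark TATAAA, 32 and 31 bases before the start, and in Il1a also TGACTCA, 12 bases before the start, which matches the AP-1 letters TGANTCA.
Il1a: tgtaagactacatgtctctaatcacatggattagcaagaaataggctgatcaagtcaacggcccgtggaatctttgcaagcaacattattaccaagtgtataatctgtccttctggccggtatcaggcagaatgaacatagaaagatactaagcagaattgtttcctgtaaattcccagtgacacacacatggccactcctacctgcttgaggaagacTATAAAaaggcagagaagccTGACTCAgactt
Il1b: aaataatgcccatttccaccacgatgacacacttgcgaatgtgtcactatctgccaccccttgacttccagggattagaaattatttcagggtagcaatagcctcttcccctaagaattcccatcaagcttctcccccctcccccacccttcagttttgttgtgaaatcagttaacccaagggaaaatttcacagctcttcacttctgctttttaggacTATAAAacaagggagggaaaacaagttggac
Both strands of the windows from 250 bases before to 50 after the start were searched. The TATA letters were found in 13.6% of 32817 promoters and the AP-1 letters in 7.81%. The thyroid hormone receptor letters AGGTCA occur in 16.3% of promoters, and their direct repeat with 4 bases between in 0.0152%. Neither was found in the 5 windows at hand, those of S100a8, S100a9, Il1a, Il1b and Stfa1, which speaks only for these letters in these windows. Windows of Krt6a, Krt6b, Krt16, Krt17 and Il36a were not used here.

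Il1a and Il36a were high in the same libraries. After group means were removed their log2 levels had r = 0.849 and rho = 0.864 over 27 libraries (adjusted p = 0.00028 and 0.00014, permutation within groups, over 28 pairs of genes), and r = 0.818 without the 2 libraries farthest from the median. Within groups r was 0.870 in Blank, 0.678 in Vehicle and 0.942 in TDM (exact permutation p = 0.00986, 0.0506 and 0.00407, n = 9 each). Of the 28 pairs, 4 had an adjusted p under 0.05 for r, all positive; the others were S100a9 with Il36a (r = 0.587, rho = 0.692, adjusted p = 0.00098 and 0.00014; r = 0.715 without the 2 libraries), S100a9 with Il1a (r = 0.517, rho = 0.665, adjusted p = 0.00457 and 0.00084; r = 0.578 without them) and Krt16 with Il1a (r = 0.535, rho = 0.491, adjusted p = 0.0281 and 0.0732; r = 0.433 without them). Within groups, the exact permutation p of S100a9 with Il36a was 0.0169 in Blank, 0.0992 in Vehicle and 0.0142 in TDM, that of S100a9 with Il1a was 0.00582, 0.170 and 0.0349, and that of Krt16 with Il1a was 0.134, 0.4929 and 0.0208. Il1a and Il1b, in contrast, had r = 0.417 (rho = 0.332, adjusted p = 0.123 and 0.309).

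Genes of the upper epidermis moved with both cytokines. Of 10 suprabasal keratinocyte markers, 5 fell from Blank to Vehicle and none rose, with a median log2 fold change of -1.62; the cornified envelope precursor Ivl fell 3.55-fold (adjusted p = 0.0323) and the desmosome gene Dsc1 8.42-fold (adjusted p = 0.0323). From Vehicle to TDM 4 of 10 rose and none fell, with a median of 1.05; Ivl rose 3.71-fold (adjusted p = 0.0017) and Dsc1 6.78-fold (adjusted p = 0.00696). The number that rose was 3 without Vehicle replicate 3. Over all tested genes, 1.86% fell from Blank to Vehicle and 12.0% rose from Vehicle to TDM. The 10 markers had sums of 1578 to 7382 CPM (Blank, median 4115), 885 to 2709 (Vehicle, median 1525) and 732 to 6728 (TDM, median 2507). Over libraries, with group means removed, their mean log2 level had r = 0.934 with Il1a and 0.900 with Il36a (rho = 0.930 and 0.935, adjusted p = 0.000133 for each). Without the 2 libraries farthest from the median r was 0.913 and 0.922. The muscle genes ran the other way (r = -0.640 with Il1a, rho = -0.619, adjusted p = 0.00168 and 0.00514; r = -0.678 with Il36a, rho = -0.697, adjusted p = 0.0005 and 0.00088). Smaller relations were found for S100a9 with the suprabasal markers (r = 0.509, rho = 0.624, adjusted p = 0.00515 and 0.00088) and for Il1b with the muscle genes (r = -0.631, rho = -0.649, adjusted p = 0.00207 and 0.0028). In all, 14 of the 40 relations between genes and marker lists had an adjusted p under 0.05, 9 of them positive, and not all are named here. Within groups the suprabasal r with Il1a was 0.858, 0.778 and 0.996 in Blank, Vehicle and TDM (exact permutation p = 0.00465, 0.0185 and 5.51e-06, n = 9 each, the last being the smallest that 9 libraries can give). The part of these tissue contents in the cytokine differences was not tested. Fits with the muscle covariate, given above, cannot separate muscle content from treatment, as the mean of the covariate differed between the groups.

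**Figure D3:**
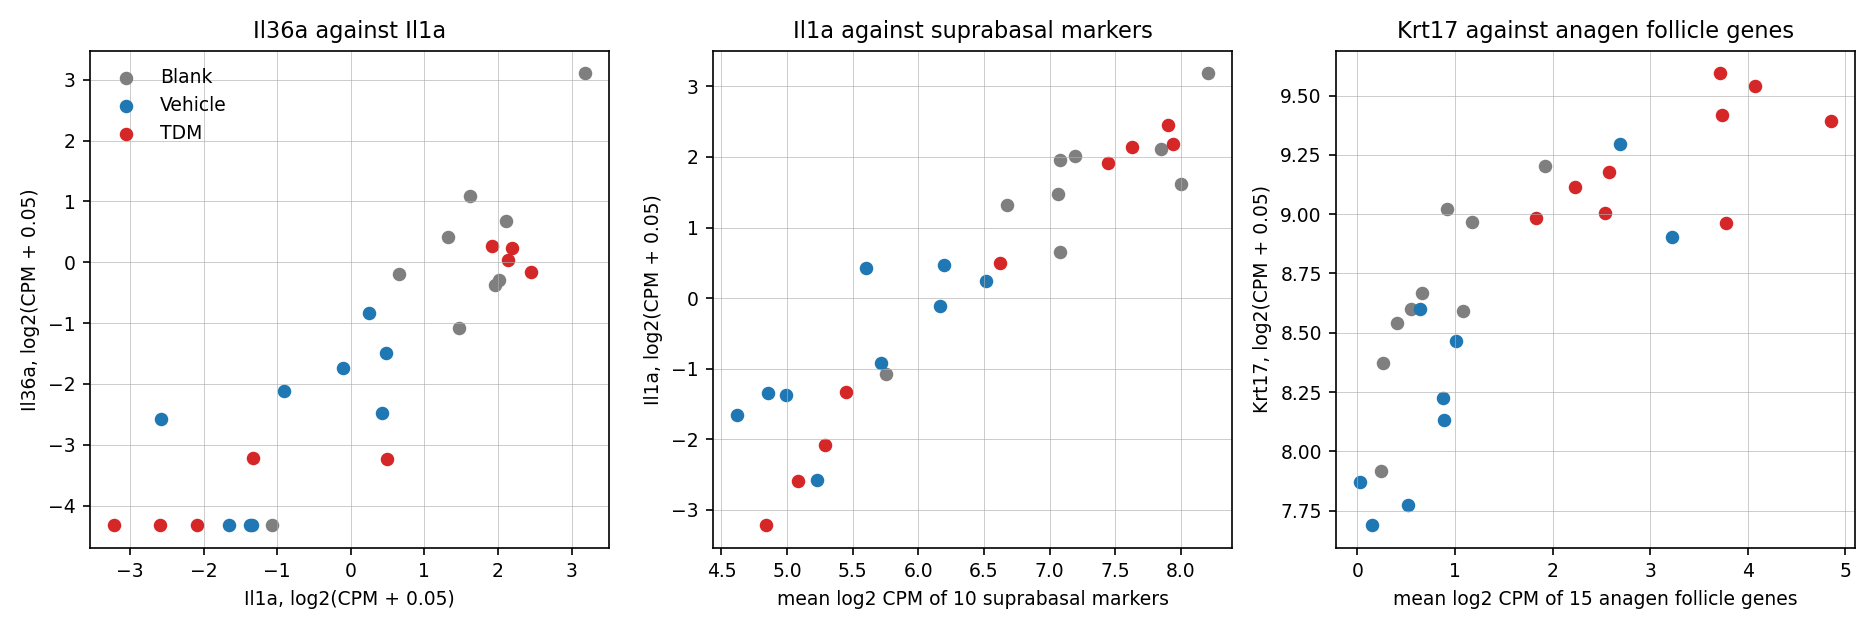
Each point is 1 of the 27 libraries, coloured by group: Il36a against Il1a, Il1a against the mean of 10 suprabasal markers, and Krt17 against the mean of 15 growing follicle genes, all on log2 scales of CPM. Il1a rises with the suprabasal markers in all 3 groups (r = 0.934 with group means removed) and Krt17 with the follicle genes (r = 0.757).

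The rest of the interleukin 1 family changed in a few members. Of 24 other tested genes, 3 fell from Blank to Vehicle and none rose: Il36g, another agonist of the interleukin 36 receptor, fell 5.63-fold (adjusted p = 0.0344), the receptor antagonist Il36rn fell 3.45-fold (adjusted p = 0.0323), and Il1f10, which encodes interleukin 38, fell from 2.44 ± 1.62 to 0.558 ± 0.352 CPM (adjusted p = 0.0373). From Vehicle to TDM, Il36rn rose 2.86-fold (adjusted p = 0.00659) and the shared chain Il1rap 1.38-fold (adjusted p = 0.00693), while the alarmin Il33 fell 1.63-fold (adjusted p = 0.000928). From Blank to TDM, Il33 and the kinase Irak2 fell 1.38-fold and 1.4-fold (adjusted p = 0.0123 and 0.0176). Over all tested genes 2.76% were called between Blank and Vehicle, 23.7% between Vehicle and TDM and 16.2% between Blank and TDM. The calls with TDM therefore cannot be read as particular to this family. The receptors were not called: Il1r1 had means of 58.4 ± 8.82, 53.9 ± 9.81 and 58.7 ± 11.8 CPM in Blank, Vehicle and TDM, and the interleukin 36 receptor Il1rl2 had 88.4 ± 14.4, 84.5 ± 13.4 and 91.7 ± 11.6. The decoy receptor Il1r2 (66.3, 48.4 and 60.5 CPM) and the antagonist Il1rn (21.6, 17.97 and 14.8 CPM) were not called either. Of 29 listed targets of interleukins 1 and 17, 12 had enough reads to test, and 1 was called: Saa3 was higher in TDM than in Blank, at 0.794 ± 0.658 against 0.267 ± 0.189 CPM (adjusted p = 0.0291), and not without Blank replicate 9 (adjusted p = 0.0506).

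Stfa1 encodes a stefin A protease inhibitor (chromosome 16, 36276951 to 36285373, plus strand). In Stfa1 the lowest, median and highest values were 0.0607, 0.346 and 4.67 CPM in Blank, 0.134, 0.541 and 1.16 in Vehicle, and 0.0564, 0.0618 and 0.695 in TDM, the median TDM library holding 1 read. Most TDM libraries were low, 8 of 9 lying below the Vehicle median. In the fit with no filter its log2 fold change was -1.63 ± 0.72 SE from Vehicle to TDM, -0.56 ± 0.62 SE from Blank to Vehicle and -2.19 ± 0.70 SE from Blank to TDM, none called (adjusted p = 0.162, 0.653 and 0.0626). The first was called by limma voom (-1.98, adjusted p = 0.0275), and the last by DESeq2 (-2.24, adjusted p = 0.0127) and with the muscle covariate (-2.52, adjusted p = 0.0295). Without Blank replicate 9 the difference between Vehicle and TDM was called (-1.63, adjusted p = 0.0416), as was that between Blank and TDM without Blank replicate 1, Blank replicate 2 or TDM replicate 5 (-2.34, -2.34 and -2.81, adjusted p = 0.0406, 0.0383 and 0.0221). Without Blank replicate 9 the difference between Vehicle and Blank turned in sign (0.71, adjusted p = 0.505) and that between TDM and Blank was -0.92 (adjusted p = 0.369). The Stfa1 transcript was 96.8% identical to that of its family member BC100530 and shared 23.1% of its 50-base windows with it, so reads of the 2 genes may be mixed. BC100530 was called lower in TDM than in Blank (means 0.944 ± 0.918 and 7.75 ± 18.4 CPM, adjusted p = 0.0117), with 56.6 CPM in Blank replicate 9 and at most 4.46 in any other library, and was not called without that library (log2 fold change -0.80 against -3.03 with it, adjusted p = 0.318). Csta1, a stefin of the cornified layer, fell 4.0-fold from Blank to Vehicle (adjusted p = 0.0344). Of 4 other stefin genes tested, these 2 were the only ones called. Of the proteases stefins inhibit, Ctsl fell 1.64-fold from Blank to Vehicle and rose 1.5-fold from Vehicle to TDM (adjusted p = 0.0442 and 0.0284), the rise not being called without Vehicle replicate 3 (log2 fold change 0.50, adjusted p = 0.0678).

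Blank replicate 9 stood apart for several of these genes and for other genes of the epidermis, a description made after its values were seen. It held the highest value of all 27 libraries for Krt6b, Krt16, S100a9, Il1a, Il36a and Stfa1. For 5 of the 10 genes it was over 3-fold above the median of the other 8 Blank libraries: 45.1-fold for Krt6b, 14.2-fold for Stfa1, 10.8-fold for Il36a, 7.79-fold for Krt16 and 3.15-fold for Il1a. Of 17232 tested genes, 115 were (0.67%). Krt6b and Stfa1 did not pass the filter and are not among these tested genes. They had medians of 7 and 6 reads in Blank, and no share for genes with so few reads is given here. It was not the highest Blank library for Krt6a (33.2 CPM), Krt17 (500 CPM), S100a8 (4.19 CPM) or Il1b (4.49 CPM). Outside the 10, it was the highest library for Stfa2 (5.27 CPM), Il36b (13.2), Il36g (35.4), the cornified envelope genes Sprr1b (8.62) and Sprr2d (4.37), the protease Klk6 (36.8) and the chemokine receptor Cxcr2 (5.57). It was the highest Blank library for 9 of 10 suprabasal markers, 3 of 4 other stefins and 12 of 27 interleukin 1 family genes. The same held for 9 of 24 other wound genes and 7 of 18 other keratins, against 10.8% of all tested genes. For S100 genes it was 1 of 13, and for basal keratinocyte markers 0 of 9. The interleukin 1 and S100 counts include genes of the 10. Cxcr2 is found on neutrophils: of 6 tested neutrophil markers this was the highest Blank library for 3, against 10.8% of all tested genes, and their median ratio to the other Blank libraries was 1.54. Ly6g had no read in it, as in most Blank libraries. Its sum of suprabasal markers was the highest in Blank, 7382 CPM, and its sum of muscle genes the lowest, 31512 CPM; their part in these values was not tested.

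**Figure D4:**
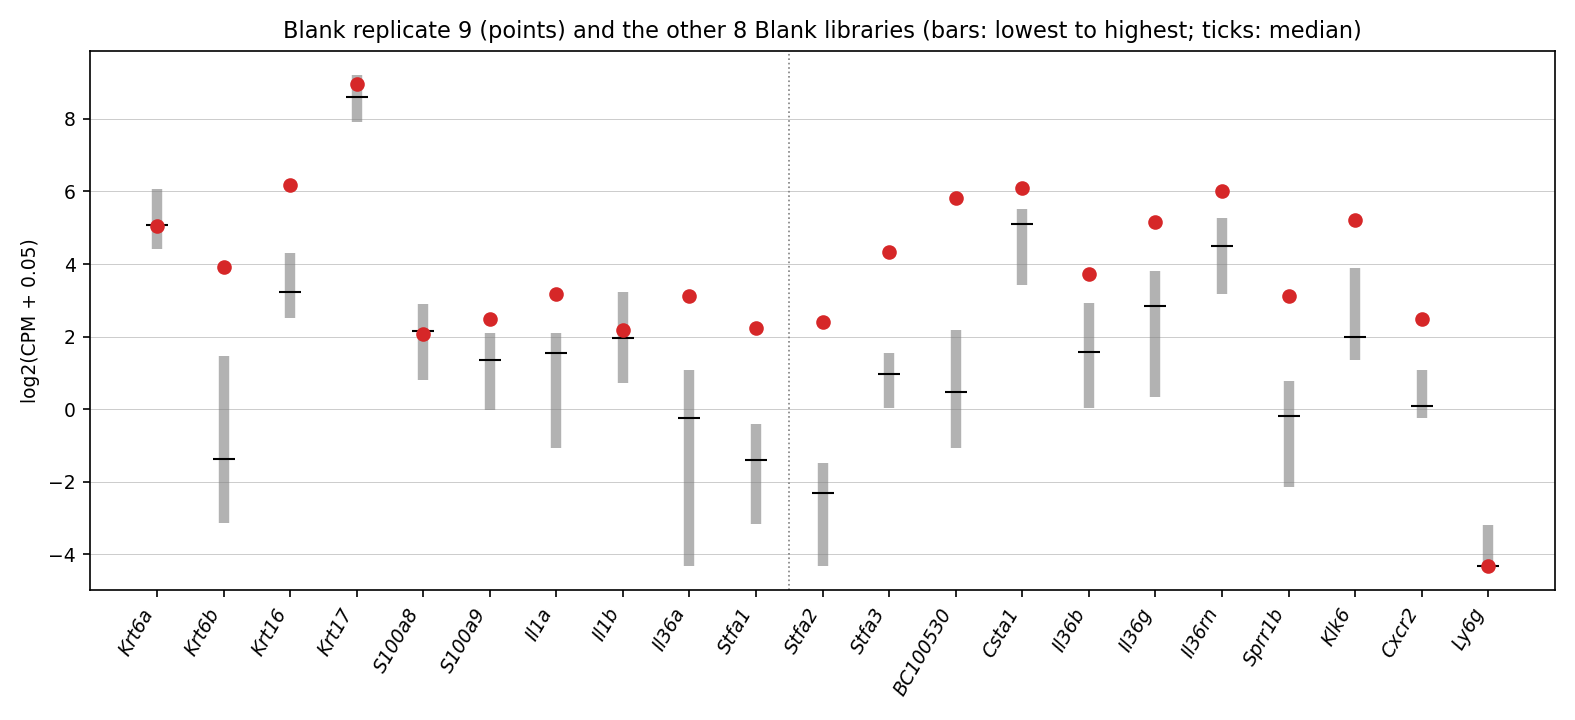
Points are Blank replicate 9, bars run from the lowest to the highest of the other 8 Blank libraries with a tick at their median, on a scale of log2(CPM + 0.05); the 10 genes stand left of the dotted line. The points of Krt6b, Krt16, S100a9, Il1a, Il36a and Stfa1 lie above their bars, those of Krt6a, Krt17, S100a8 and Il1b within them.

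Other genes of wounded epidermis, 24 of 38 listed having enough reads to test, changed in both directions. From Vehicle to TDM 8 rose and 3 fell (median log2 fold change 0.16), where 12.0% of all tested genes rose and 11.7% fell. The protease Klk6 rose from 1.75 ± 1.12 to 13.9 ± 11.01 CPM (7.89-fold, adjusted p = 0.00184), the envelope precursor Sprr1a from 12.4 ± 5.8 to 68.5 ± 64.9 CPM (5.51-fold, adjusted p = 0.00502), the matrix protease Mmp3 2.45-fold (adjusted p = 0.0101) and the crosslinking enzyme Tgm1 2.94-fold (adjusted p = 0.0141). The fatty acid binding protein Fabp5 fell 2.31-fold (adjusted p = 0.000173), Serpinb2 1.83-fold (adjusted p = 0.0145) and the integrin chain Itgb6 1.5-fold (adjusted p = 0.0424). Without Vehicle replicate 3, 7 rose and 2 fell, Itgb6 not being called (adjusted p = 0.0767). From Blank to Vehicle, Sprr1a fell 5.56-fold (adjusted p = 0.0323), Tgm1 3.84-fold (adjusted p = 0.0323), Klk6 5.21-fold (adjusted p = 0.0344) and the growth factor Ereg 6.09-fold (adjusted p = 0.0366), and none rose. Of all tested genes, 1.86% fell and 0.894% rose there. Against Blank, TDM had higher Gjb2 and Gjb6, gap junction genes (2.98-fold and 2.03-fold, adjusted p = 0.00268 and 0.0306), and lower Fabp5 and Serpinb2. In that comparison 11.6% of all tested genes rose and 4.63% fell. Among 18 other tested keratins, 6 fell and 2 rose from Vehicle to TDM, and 4 fell and 2 rose without Vehicle replicate 3. The basal keratins Krt5 (2940 ± 1090 to 1871 ± 301 CPM, adjusted p = 0.0111) and Krt14 (2681 ± 948 to 1636 ± 356 CPM, adjusted p = 0.00705) fell, also without that library (adjusted p = 0.0233 and 0.0142), and Krt77 and Krt23 rose 3.39-fold and 4.99-fold (adjusted p = 0.00919 and 0.00999).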

How the data were processed

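RNA sequencing of 27 skin libraries was analysed from 1 table. Its read counts per gene were deposited by the authors without normalization, per the file headers, and its FPKM values were deposited beside them; these are counts over gene length and over a constant of each library, which is 0.922 to 1.08 of its total. The 6 columns of group means in the table were not used; it also holds the log2 fold changes and p-values the authors deposited for their own comparisons, by a tool the labels do not name. Bowtie 0.12.2 and mm9 are listed per the submitters' processing notes, yet 98.3% of 54409 genes have GENCODE M21 coordinates (GRCm38), as do all 10 genes described; coordinates are given as in the table. How reads that fit several genes were counted is not stated. A TruSeq RNA kit was used, per the labels' protocols.

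Counts were kept by filterByExpr at its settings of 10 for the count and 15 for the total, TMM-scaled, and modelled in 1 fit of the 27 libraries by the robust quasi-likelihood test of edgeR 4.0.16 (R 4.3.3), with Benjamini-Hochberg adjustment over 17232 genes; a gene was called at an adjusted p under 0.05. Genes below the filter were read from a fit of all 34892 genes with a read. A standard error is the size of the log2 fold change divided by the root of its F statistic. CPM are after TMM scaling, and log2 CPM used a prior count of 2. Relations used 100000 permutations within groups, and exact permutation within 1 group of 9; all p are two-sided. Outliers were sought with Dixon's ratio at its critical value. Alternatives were RLE scaling, DESeq2 1.42.0, limma 3.58.1 (voom with quality weights; log2(FPKM + 1) and log2(FPKM + 0.1)), other filters, only 2 groups, the replicate number as a block, a muscle covariate and left-out libraries. The fits were tested on simulated counts. All 108 pairs of libraries within groups differed by more than counting noise (chi-square per degree of freedom 8.03 or more).

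The 10 genes, the gene lists and the tests were chosen with earlier results of these data known. Named genes are the 10, up to 4 called genes per list and comparison with the smallest p, preset markers and receptors, and the 3 genes most like each of the 8 tested; Tlr4, Ager and genes named for Blank replicate 9 outside this rule were chosen after their values were seen, as were the counts per gene list without Vehicle replicate 3, Vehicle replicate 8 or Blank replicate 9. Promoter windows are from RefSeq and transcripts from GENCODE M21. Protein sequences were not used here, so identities are those of transcripts (Biopython 1.88).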

Additional observations from a re-analysis of the deposited data

Results flagged for a closer look

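In 10 of 30 sets of 9 libraries (10 genes in 3 groups), 1 library stood farther from the rest than Dixon's critical value allows. That value flags about 1 in 20 sets of normally distributed values. The ratio was taken on CPM without logs, which are skewed for genes with few reads, and no share over all genes is given. The 10 flags therefore do not show an excess of outliers in these genes. Of these, 5 were Blank replicate 9: Krt6b at 15.1 CPM, Krt16 at 72.3, Il1a at 9.04, Il36a at 8.56 and Stfa1 at 4.67. Krt6a was flagged in Blank replicate 1 (67.2 CPM) and in Vehicle replicate 3 (92.7 CPM), the library with the most muscle and intestine RNA. TDM replicate 5 was flagged for S100a8 (12.3 CPM) and Stfa1 (0.695 CPM), and Vehicle replicate 4 for S100a9 (2.52 CPM).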

How the results depend on the processing

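Of 1153 values of the 10 genes under the alternatives, 1035 kept their direction and side of the threshold, 54 lost the call, 31 gained one and 33 turned in sign. The causes were not tested. Many of the 1153 come from leaving out a library of the group that is not compared. This hardly moves the log2 fold change, so the 1035 cannot be read as a measure of stability. Counts of the 10 genes below cover those past the filter of each fit, which are 8 unless stated, without Krt6b and Stfa1. Against 4090 genes called between TDM and Vehicle, voom called 6917 and the muscle covariate 231; of the 8 genes, DESeq2 called 2 higher and the muscle covariate 0. Against 475 between Vehicle and Blank, DESeq2 called 1437, voom 226, no filter 2, the muscle covariate 1, leaving out Vehicle replicates 7 and 8 84, and leaving out Vehicle replicates 3, 7 and 8 0. In that comparison the 2 lower genes became 0 with voom, no filter (10 genes), the muscle covariate and both of these omissions (9 genes), and 1 with limma on log2(FPKM + 1) or log2(FPKM + 0.1). Against 2793 between TDM and Blank, voom called 5261. There the 1 higher gene became 0 with no filter (10 genes) and the muscle covariate. The 2 lower genes became 0 with voom, 5 with the muscle covariate and 1 with log2(FPKM + 0.1). Whole-table counts are not given here for DESeq2 between TDM and Vehicle, for the muscle covariate between TDM and Blank or for the FPKM fits. Counts of the 8 genes in those fits therefore cannot be read as particular to them. Leaving out 1 library gave 3074 to 5537 genes for TDM versus Vehicle (1 to 2 of the 8 higher, 0 lower), 0 to 1289 for Vehicle versus Blank (0 higher, 0 to 3 lower) and 2307 to 3073 for TDM versus Blank (0 to 1 higher, 1 to 3 lower). With no filter, Krt6b was called lower in TDM than in Blank in 26 of 27 omissions and Stfa1 in 3, and Stfa1 lower in TDM than in Vehicle in 1.

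Signs turned for TDM versus Vehicle with the muscle covariate in S100a9 (-0.36), Il1a (-0.46) and Il36a (-1.08). For Vehicle versus Blank they turned with voom in Krt6a (-0.16), Il1b (0.24) and Stfa1 (0.64), with the muscle covariate in Il1b (0.11) and Stfa1 (0.0374), and with log2(FPKM + 0.1) in Stfa1 (0.23). The TDM versus Blank value of S100a8, near 0, turned to -0.0117 with RLE, -0.012 with DESeq2, -0.00508 with a filter at 1 CPM, -0.0195 with no filter, -0.0241 with only 2 groups, -0.0226 without Vehicle replicates 3, 7 and 8, -0.0572 with the block, -0.17 with voom, and -0.0756 and -0.0912 on log2(FPKM + 1) and log2(FPKM + 0.1). Leaving out 1 library also turned signs: S100a8 for TDM versus Blank ran from -0.32 to 0.12 (turned in 11 omissions), and for Vehicle versus Blank Krt6a ran from -0.096 (without Vehicle replicate 3) to 0.35, Il1b from -0.35 to 0.00504 (without Blank replicate 2) and Stfa1 from -0.77 to 0.71 (without Blank replicate 9).

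Replicate numbers do not pair the libraries: of 27 same-number pairs, 11 correlated over 0.1 (-0.399 to 0.382, median 0.038), and 3 of 27 libraries correlated best with their own number. With the replicate number as a block, 3946, 598 and 2621 genes were called for TDM versus Vehicle, Vehicle versus Blank and TDM versus Blank, and of the 8 the higher call for TDM versus Blank became 0 (Krt17 0.57, adjusted p = 0.06) and Krt6b was not called (-2.55, adjusted p = 0.133). Counts under 10 reads limit Krt6b, Stfa1 and Il36a, and in Vehicle also S100a9 and Il1a (medians of 9 and 8 reads). In TDM replicates 3, 4, 5 and 7, Il1a had 3, 2, 6 and 1 reads.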

Other observations

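The authors' deposited table gives its own log2 fold changes, from a test whose tool the labels do not name. Only its values with an adjusted p under 0.05 are listed here, and Krt6a, S100a8 and Il1b had none. No share of all genes under that threshold is given for that test. The number listed therefore cannot be read as particular to the 10 genes. In the authors' deposited table Krt17 is at 0.83 (adjusted p = 0.000536) for TDM versus Vehicle and 0.55 (adjusted p = 0.00236) for TDM versus Blank. For Vehicle versus Blank the authors' deposited table lists Il1a at -2.34 (adjusted p = 5.08e-05), Il36a at -3.43 (adjusted p = 0.000631), S100a9 at -1.81 (adjusted p = 0.00675) and Krt6b at -2.62 (adjusted p = 0.0294). For TDM versus Blank the authors' deposited table lists S100a9 at -1.39 (adjusted p = 0.000367), Krt16 at -1.52 (adjusted p = 0.0105), Krt6b at -3.51 (adjusted p = 0.00666) and Stfa1 at -2.24 (adjusted p = 0.0215), and for TDM versus Vehicle Stfa1 at -1.66 (adjusted p = 0.0216).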
